A study of Mus musculus with 300 samples.

Results

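Gfra1-only cells are spermatogonia with at least 1 FPKM (Cufflinks' measure of a transcript's level, corrected for its length and for how many fragments a cell gave) of Gfra1 and under 1 FPKM of Kit. Kit-only cells are the converse. Of 300 cells, 131 were Gfra1-only and 50 were Kit-only. Another 43 held both transcripts at 1 FPKM or more, and 76 held neither at that level. The 131 Gfra1-only cells came as 25, 42, 35 and 29 from preparations 1 to 4, and the 50 Kit-only cells as 13, 6, 11 and 20. Both classes were compared within preparations over all other genes. Gfra1 and Kit themselves were left out of every test, because they chose the cells.

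In the mouse testis, Sertoli cells release GDNF, which binds the anchored co-receptor GFRA1 on undifferentiated spermatogonia and signals through the receptor tyrosine kinase RET. This signal sustains self-renewal and acts in part through SRC-family kinases and the ETS factor ETV5. Retinoic acid drives the switch to differentiating spermatogonia, which gain the stem cell factor receptor KIT and the retinoic acid target STRA8.

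The cells came from testes of untreated adult mice with an ID4-EGFP reporter, whose fluorescence follows the Id4 locus. Each preparation pooled at least 2 mice, and the cells had passed a Percoll step, a sort for bright CD9 with EGFP, and capture on a Fluidigm C1 chip, so cells outside that gate are not represented. The number from 1 to 4 in the cell titles was read as the preparation, so n = 4 below. EGFP brightness of each cell had been measured on the chip and assigned to quartiles, of which Q1 is the brightest and Q4 the dimmest.

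Germ cell markers were found in both classes, though not all equally. Ddx4, an RNA helicase of germ cells, and Dazl, a germ cell RNA-binding protein, stood at 1 FPKM or more in 131 of 131 Gfra1-only and 50 of 50 Kit-only cells. The same held for Uchl1. Sall4 reached this level in 131 of 131 and 46 of 50 cells, and Zbtb16 in 126 of 131 and 39 of 50. Of the 300 cells, 24 had Gfra1 and 26 had Kit above 0 but under the threshold of 1 FPKM. Gfra1 had a median of 43.8 FPKM in Gfra1-only cells, with the 3 lowest at 1.70, 1.72 and 1.77, and the highest value below the threshold in any cell was 0.958. Kit had a median of 24.6 FPKM in Kit-only cells, with the lowest at 1.25, 1.59 and 1.83, and the highest value below the threshold was 0.926. Under 5 FPKM stood 10 of the 131 and 9 of the 50. The excluded transcript was not always at 0, since Kit was above 0 in 15 Gfra1-only cells and Gfra1 in 5 Kit-only cells. Over all 300 cells, 2934 to 7817 genes stood at 1 FPKM or more.

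Of 10396 genes tested, 135 (1.3%) differed between the classes at an adjusted p under 0.05. Of these, 56 (0.539%) were higher in Gfra1-only cells and 79 (0.76%) in Kit-only cells. The largest differences were those of Tcl1 and of Dusp6, Etv5 and Fyn, genes tied to GDNF and ERK signalling, on the Gfra1-only side, and of Stra8, Cited1 and Crip2 on the Kit-only side. Every one of the 135 had the same sign in all 4 preparations. The 4 preparation means of one class did not overlap the 4 of the other for 43 of the 56 and 67 of the 79, against 6.68% of all genes tested. These genes were called on the same means, so their shared sign and their separation follow largely from the call and add no support to it. Kit-only cells held more genes at 1 FPKM or more, 5870 ± 907 against 5362 ± 657 in Gfra1-only cells (SD, n = 4 preparations), in 4 of 4 preparations. The exact sign-flip permutation p was 0.125, the smallest that 4 pairs allow. The median difference over all genes was -0.15, and 62.9% of genes had a value below 0. After each mean was centred on its median, which moved the median gene to 0.05, the split was 160 higher in Gfra1-only and 55 in Kit-only cells. With only the Gfra1-only cells at or above their preparation's median number of genes, it was 53 and 14. With genes per cell as a covariate, 4 genes were called, and 55 of the 56 and 78 of the 79 kept their sign, with medians of 1.29 and -1.49. Of 45 called genes named here, 16 had a difference smaller by over 1.5 times with this covariate. The count was 203 without preparation 1, 21 without preparation 2, 29 without preparation 3 and 14 without preparation 4, and it was 11 without pairing by preparation.

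**Figure D1:**
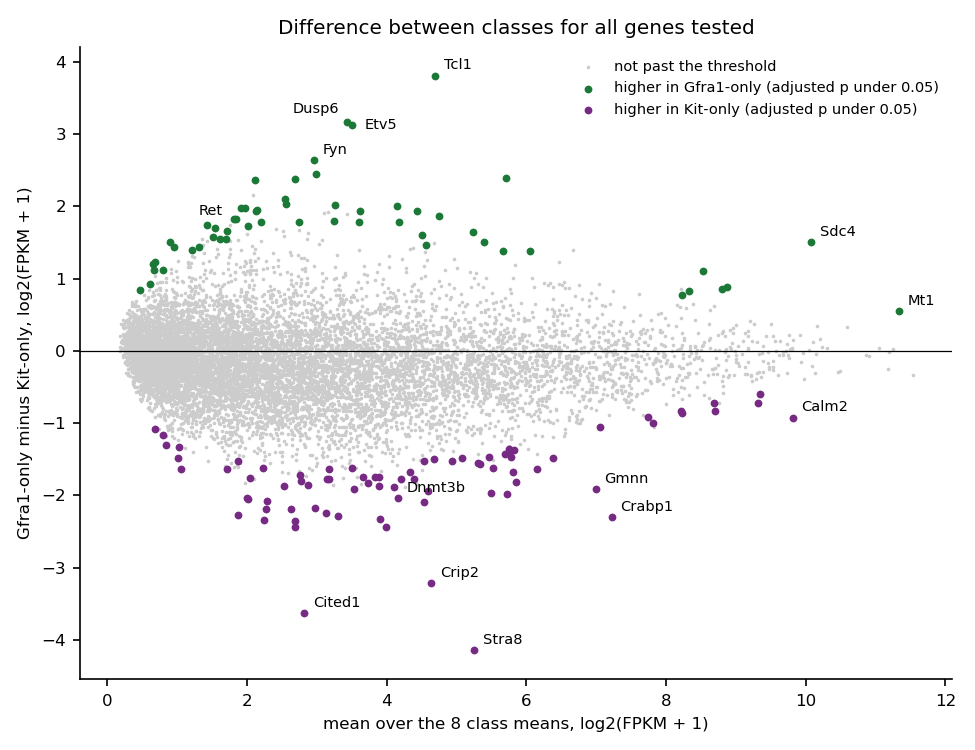
Difference between the classes (vertical, Gfra1-only minus Kit-only, log2(FPKM + 1)) against the mean level over the 8 class means (horizontal) for the 10396 genes tested. Green points mark the 56 genes higher in Gfra1-only and purple points the 79 higher in Kit-only cells; Tcl1 and Stra8 lie farthest from 0.

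Values below are means over the cells of a preparation of log2(FPKM + 1), given for preparations 1, 2, 3 and 4 in that order. A difference is Gfra1-only minus Kit-only on this scale, which understates the change of low genes. Tcl1, a coactivator of the kinase AKT, stood at 6.21, 6.56, 6.05 and 7.59 in Gfra1-only cells and at 3.49, 2.94, 2.97 and 1.78 in Kit-only cells. The lowest Gfra1-only mean lay well above the highest Kit-only mean, and the difference of 3.81 (SE 0.45, adjusted p = 0.00125) was the largest on that side. At least 1 FPKM of Tcl1 was found in 86.3% of Gfra1-only cells and in 52% of Kit-only cells, so many Kit-only cells still held the transcript. Tcl1 lies on chromosome 12 from 105216750 to 105222793 on the minus strand (GRCm38).

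Of the list of stem cell associated genes, 7 of 16 tested members were higher in Gfra1-only cells and 0 in Kit-only cells. For all genes tested, the shares were 0.539% higher in Gfra1-only and 0.76% higher in Kit-only cells. All 16 had a difference above 0, with a median of 1.33 against -0.15 for all genes. Etv5, whose ETS-family product maintains the stem cell pool, stood at 4.24, 5.17, 5.34 and 5.52 in Gfra1-only cells and at 2.38, 2.11, 1.82 and 1.44 in Kit-only cells. The groups did not overlap, and the difference was 3.13 (SE 0.42, adjusted p = 0.00274). Eomes, a T-box factor, was found in 42.7% of Gfra1-only and 14% of Kit-only cells. Its means were 1.38, 1.89, 2.54 and 1.84 against 0.04, 0.00, 1.54 and 0.48, so 1 Kit-only mean reached into the Gfra1-only range (difference 1.40, SE 0.30, adjusted p = 0.0384). The surface proteins Mcam (1.86, adjusted p = 0.0485) and Tspan8 (1.78, adjusted p = 0.0456), used to enrich stem cells by sorting, were also higher. The Mcam difference was 0.07 with genes per cell as a covariate (adjusted p = 0.993) and 1.34 within EGFP quartiles (adjusted p = 0.292). That of Tspan8 was 2.03 with the covariate (adjusted p = 0.597) and 0.89 within quartiles (adjusted p = 0.491). So both lost their call in both settings, while the size of Tspan8 fell only within quartiles. Also higher over all cells was the homeobox gene Hhex (2.44, adjusted p = 0.00945).

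Several other genes of undifferentiated spermatogonia did not pass. Bcl6b, a GDNF-induced repressor, differed by 1.25 (adjusted p = 0.0815), and the LIM homeobox gene Lhx1 by 0.82 (adjusted p = 0.0905). Nanos2, an RNA-binding protein that guards the undifferentiated state, differed by 0.77 (adjusted p = 0.0843) and was found in 18.3% of Gfra1-only and 4% of Kit-only cells. The zinc finger gene Zbtb16 differed by 1.43 (adjusted p = 0.0925) and Sall4 by 0.82 (adjusted p = 0.0684). Cd9, the tetraspanin of the sort gate, differed by 1.40 (adjusted p = 0.05001) and lay just outside the threshold.

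In the GDNF receptor complex and its adaptors, 2 of 13 tested members were higher in Gfra1-only cells and 0 in Kit-only cells. Among all genes tested, these shares were 0.539% and 0.76%. The list's median was -0.16, close to the -0.15 of all genes. The called members were Ret, whose product signals together with GFRA1, and Fyn. Ret, the signalling receptor, stood at 1.73, 3.47, 2.75 and 3.10 in Gfra1-only cells and at 0.42, 0.86, 1.51 and 0.95 in Kit-only cells. No Kit-only mean reached the lowest Gfra1-only mean (difference 1.83, SE 0.37, adjusted p = 0.0298), and 70.2% against 32% of cells held at least 1 FPKM. Fyn, an SRC-family kinase downstream of RET, stood at 4.46, 4.32, 4.37 and 3.99 against 1.74, 1.66, 1.61 and 1.57. Both sets of 4 means were narrow and far apart (difference 2.64, SE 0.37, adjusted p = 0.00338). Gfra3, which encodes the co-receptor for another GDNF family ligand, differed by -0.55 (adjusted p = 0.194).

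Among targets and feedback inhibitors of the ERK kinase pathway, 3 of 14 tested members were higher in Gfra1-only cells and 1 in Kit-only cells. The shares of all genes tested were 0.539% and 0.76%. This list had a median of 0.50. Dusp6, the phosphatase that inactivates ERK in feedback, stood at 4.11, 5.69, 4.89 and 5.39 in Gfra1-only cells and at 2.90, 0.85, 2.19 and 1.44 in Kit-only cells. The groups were separate, with a difference of 3.18 (SE 0.51, adjusted p = 0.0107), while fitting genes per cell left an adjusted p of 0.871. Etv4, an ETS factor related to ETV5, was near 0 in Kit-only cells, where 2% of cells held 1 FPKM or more against 26.7% of Gfra1-only cells (difference 0.84, adjusted p = 0.0432). Dusp2, another dual-specificity phosphatase, went the other way (-1.30, adjusted p = 0.0485), most in preparation 2 with -2.45, and was found in 3.82% and 28% of cells.

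Of the immediate early and dissociation stress genes, 3 of 13 tested members were higher in Gfra1-only cells and 0 in Kit-only cells. All genes tested gave shares of 0.539% and 0.76%. The median of the list was 0.07. Egr2, which is also known as a GDNF-responsive gene, stood at 2.40, 3.40, 2.81 and 2.99 against 1.33, 0.47, 1.34 and 0.58. The groups did not overlap (difference 1.97, SE 0.39, adjusted p = 0.0271). Fos differed by 1.60 (adjusted p = 0.0415) and Egr1 by 1.52 (adjusted p = 0.0433), and the Egr1 means overlapped, since the highest Kit-only mean was 6.10 and the lowest Gfra1-only mean 5.65. These genes also respond to tissue dissociation, whose part in the result was not tested.

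The other leading genes on the Gfra1-only side covered several functions. Tagln2, an actin-binding protein, differed by 2.39 (SE 0.30, adjusted p = 0.00136), and its median level was 215 FPKM in Gfra1-only and 53.4 FPKM in Kit-only cells. The tyrosine phosphatase gene Ptpn13 differed by 2.38, the neurofilament gene Nefm by 2.37, the aldo-keto reductase gene Akr1b8 by 2.10 and the scaffold gene Slc9a3r1 by 2.04. Impact, an imprinted gene for a translation regulator, differed by 2.02, and Trap1a, a tumour rejection antigen gene on the X chromosome, by 2.00. Adjusted p of these 6 ran from 0.0128 to 0.0384, and the Nefm difference was 0.58 with genes per cell as a covariate (adjusted p = 0.945). Exons of Nefm overlap those of Nefl on the opposite strand, and exons of Ptpn13 those of a predicted gene. Among genes described elsewhere here, opposite-strand exons overlap for Cdc45 and Ufd1, Sycp3 and Chpt1, and Neurog3 and Fam241b. They also overlap for Atp5a1 and Haus1 and for Uchl1 and Uchl1os. Exons of Bnip3, Eomes, Mcam, Tspan8, Cd9, Nanos2, Sall4, Ctsl and Tnp1 overlap those of predicted or unnamed genes. Exons of Gfra1, which with Kit defines the classes, overlap those of a predicted gene. The library kit does not mark strand, so reads of such partners cannot be told apart. Sdc4, the heparan sulphate proteoglycan syndecan-4, was chosen after its values were seen. It stood at 10.33, 10.95, 11.08 and 10.97 in Gfra1-only cells and 9.43, 9.78, 8.99 and 9.12 in Kit-only cells. That was a separation at one of the highest levels among the called genes (difference 1.50, SE 0.17, adjusted p = 0.000869).

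Stra8 was the most different of all genes. STRA8 is induced by retinoic acid in differentiating spermatogonia and is required for entry into meiosis. Its means were 3.46, 3.28, 2.02 and 3.98 in Gfra1-only cells and 7.81, 7.18, 6.02 and 8.32 in Kit-only cells. The classes were far apart in every preparation (difference -4.15, SE 0.30, adjusted p = 9.88e-06), and the call held in 18 of 18 alternative analyses. Its median was 3.15 FPKM in Gfra1-only and 376 FPKM in Kit-only cells. Still, 58% of Gfra1-only cells held at least 1 FPKM, against 94% of Kit-only cells.

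Stra8 lies on chromosome 6 from 34920163 to 34939344 on the plus strand (GRCm38). Retinoic acid receptors bind pairs of hexamers such as AGGTCA, so the 300 bases around the RefSeq start of Stra8, from 250 bases before it to 50 after, were searched for that hexamer on both strands. A promoter with 1 or more copies was found for 16.3% of 32851 RefSeq entries, and with 2 or more for 1.81%. The Stra8 window held 2, both on the plus strand. These copies start 194 and 38 bases before the start, so they are not adjacent. Only single hexamers were counted, and spaced pairs were not searched for. They are shown because Stra8 led the comparison, with the hexamer in capitals and 12 bases on either side, on the plus strand of GRCm38 at chr6:34920742-34920771 and chr6:34920898-34920927. Annotated exons of a longer Stra8 transcript cover both stretches.
Stra8 hexamer starting 194 bases before the start: gatggggtgaaaAGGTCAtcttgctccttc
Stra8 hexamer starting 38 bases before the start: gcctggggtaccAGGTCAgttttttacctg
Of the 24 genes with the largest differences, 19 had a promoter entry, and 2 of those 19 held the hexamer. A match describes these letters only.

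In the retinoic acid pathway, 3 of 13 tested members were higher in Kit-only cells and 0 in Gfra1-only cells, with a median of -0.41. Over all genes tested, 0.76% were higher in Kit-only and 0.539% in Gfra1-only cells. Stra8 and Crabp1 were among the 3. Crabp1, a cytoplasmic retinoic acid binding protein, stood at 5.80, 6.70, 5.35 and 6.43 in Gfra1-only and 7.20, 8.62, 8.61 and 9.05 in Kit-only cells. The groups did not overlap (difference -2.30, SE 0.27, adjusted p = 0.00125). The retinol carrier gene Rbp4 was also higher in Kit-only cells (-2.44, SE 0.46, adjusted p = 0.0267), and its difference was -0.47 with genes per cell as a covariate (adjusted p = 0.951). Rarg, the retinoic acid receptor of undifferentiated spermatogonia, differed by -0.76 (adjusted p = 0.199).

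Cited1, a transcriptional co-regulator that binds CBP and p300, was found in 17.6% of Gfra1-only and 78% of Kit-only cells. Its means were 1.59, 0.36, 0.68 and 1.39 against 4.57, 4.35, 3.66 and 5.97, which left a wide gap (difference -3.63, SE 0.40, adjusted p = 0.000869). Crip2, a LIM domain protein, stood at 2.90, 3.92, 2.19 and 3.11 against 3.82, 7.07, 7.09 and 7.03. Its Kit-only mean in preparation 1 lay inside the Gfra1-only range (difference -3.22, SE 0.50, adjusted p = 0.0107). With genes per cell as a covariate the Crip2 difference was -0.42 (adjusted p = 0.951), while that of Cited1 was -3.14 (adjusted p = 0.334).

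Of the remaining leading genes, Adi1 encodes a methionine salvage enzyme and Cyba a subunit of NADPH oxidase. Galnt12 encodes an enzyme of O-glycosylation, Asb9 a SOCS box protein, Erlin1 an endoplasmic reticulum membrane protein and Phkg2 a catalytic subunit of phosphorylase kinase. Their differences ran from -2.44 for Adi1 to -2.19 for Phkg2, with adjusted p from 0.0119 to 0.0267. Each of the 6 was found in 66% to 84% of Kit-only cells and in 26% to 49.6% of Gfra1-only cells. Exons of Phkg2 overlap those of Ccdc189 on the opposite strand.

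Of the genes of differentiating spermatogonia, 5 of 13 tested members were higher in Kit-only cells and 1 in Gfra1-only cells, with a median of -1.01. Shares of all genes tested were 0.76% and 0.539%. The 5 were Stra8, Crabp1, Dnmt3b, Sohlh1 and Rhox10. Dnmt3b, a de novo DNA methyltransferase, stood at 3.30, 2.71, 2.72 and 3.84 in Gfra1-only and 5.83, 4.99, 4.66 and 5.23 in Kit-only cells. The groups were separate (difference -2.03, SE 0.36, adjusted p = 0.0170), and Dnmt3b was the only one of 5 tested members of the DNA methylation machinery past the threshold. Sohlh1, a transcription factor needed for spermatogonial differentiation, stood at 4.51, 5.38, 3.89 and 5.03 against 5.49, 6.47, 6.77 and 6.59, with every Kit-only mean above every Gfra1-only mean (difference -1.63, adjusted p = 0.0384). Its partner Sohlh2 differed by -1.01 (adjusted p = 0.174). The member on the other side was the D-type cyclin Ccnd2 (1.65, adjusted p = 0.0451), which is known to mark differentiating cells, so the list did not move as a unit. Exons of Ccnd2 overlap predicted genes on the opposite strand.

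Of meiotic prophase genes, 2 of 18 tested members were higher in Kit-only cells and 0 in Gfra1-only cells, with a median of -0.40. Among all genes tested, the shares were 0.76% and 0.539%. The 2 called genes encode proteins of the synaptonemal complex and were abundant in both classes. Sycp3 had a median of 458 FPKM in Gfra1-only and 715 FPKM in Kit-only cells (difference -0.72, adjusted p = 0.0415), and Syce2 had medians of 260 FPKM and 386 FPKM (difference -0.86, adjusted p = 0.0381). Among 8 mitophagy receptors, Bnip3 was higher in Kit-only cells (-1.96, SE 0.32, adjusted p = 0.0117), and the other 7 did not pass.

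Cell cycle genes were taken as 3 lists, for G2 and mitosis, S phase and G1 control. For comparison, 0.76% of all genes tested were higher in Kit-only and 0.539% in Gfra1-only cells. Of 20 tested genes of G2 and mitosis, 2 were higher in Kit-only cells and 0 in Gfra1-only cells. All 20 differences were below 0 (median -0.97), but the median was 0.19 in preparation 1, -0.40 against the Gfra1-only cells with more genes, and 0.35 with genes per cell as a covariate, which turns the direction. Ccna2, cyclin A2, stood at 4.09, 3.43, 2.60 and 3.87 against 5.49, 5.54, 4.33 and 5.74, without overlap (difference -1.78, adjusted p = 0.0267). Its exons overlap those of Exosc9 on the opposite strand. The mitotic kinase gene Aurka differed by -1.74 (adjusted p = 0.0330), and the proliferation marker Mki67 by -0.90 (adjusted p = 0.285). Of 18 S phase genes, Cdc45, a subunit of the replicative helicase, was higher in Kit-only cells (-1.68, adjusted p = 0.0267), and 17 did not pass. The S phase median was -0.38, against -0.15 for all genes, and 15 of 18 lay below 0. Of 13 tested D-type cyclins and G1 control genes, 1 was higher in Gfra1-only cells (Ccnd2) and 0 in Kit-only cells, with a median of 0.06 and 7 of 13 above 0. Gmnn, the licensing inhibitor geminin, was chosen after its values were seen. It stood at 6.03, 6.27, 5.35 and 6.49 against 8.47, 8.14, 6.71 and 8.47, and the groups were separate (difference -1.91, SE 0.24, adjusted p = 0.00136).

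**Figure D2:**
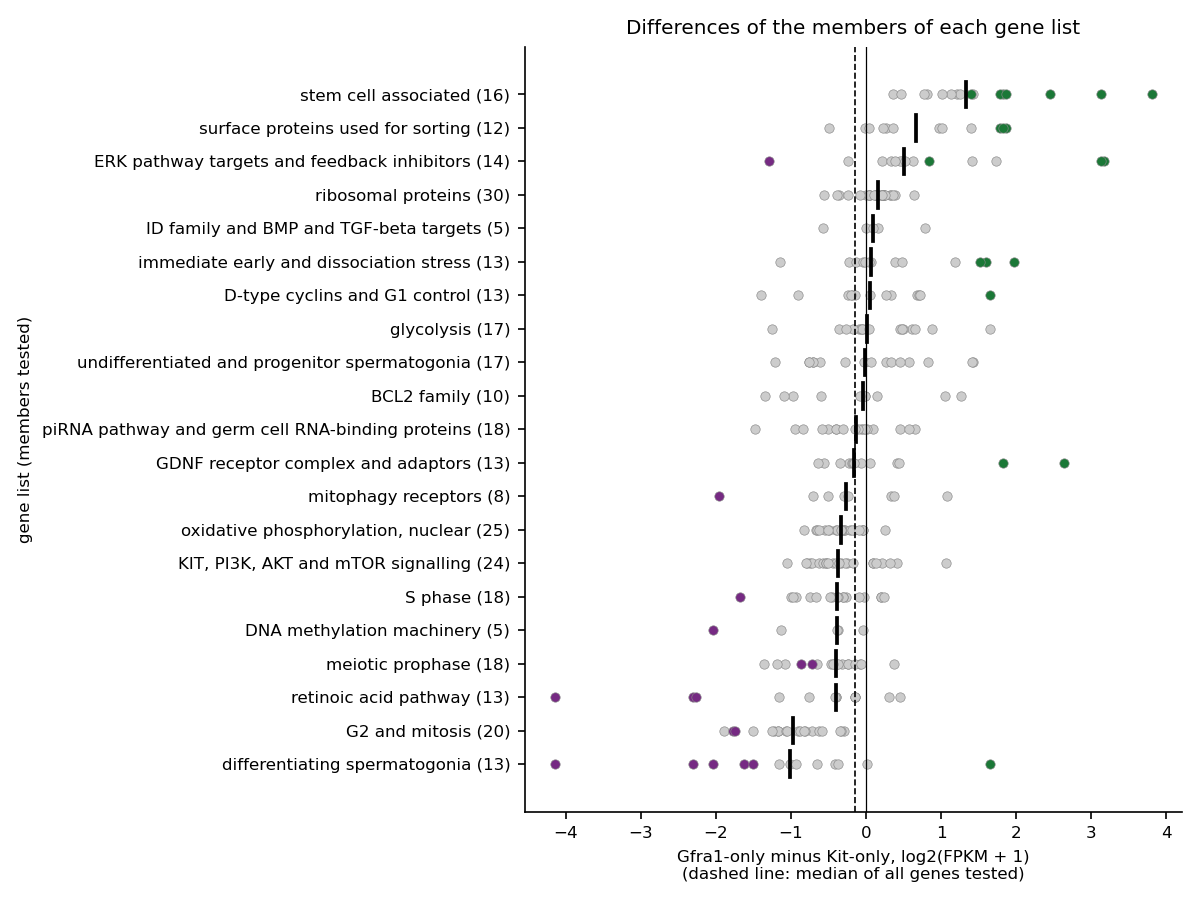
Difference of each tested member (horizontal, Gfra1-only minus Kit-only, log2(FPKM + 1)) for the gene lists with at least 4 tested members, whose number is in brackets. Green and purple points passed in either direction, grey points did not, a black bar marks the list's median and the dashed line the median of all genes, -0.15; stem cell genes lie at the top with 1.33 and differentiating spermatogonia at the bottom with -1.01.

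Other lists held no called member. None of 17 tested genes of undifferentiated and progenitor spermatogonia passed (7 with an unadjusted p under 0.05), and their median was -0.01. Neurog3, a progenitor factor, was found in 9.16% of Gfra1-only and 6% of Kit-only cells (difference -0.01, adjusted p = 0.985), and Sox3 in 30.5% and 36% (-0.02, adjusted p = 0.979). The sign of both, and that of Ddx4 below, turned in some alternatives, so no direction is given. Nanos3, another RNA-binding protein, differed by 0.57 (adjusted p = 0.561), the uridine phosphorylase gene Upp1 by -1.21 (adjusted p = 0.197) and the germ cell gene Ddx4 by -0.01 (adjusted p = 0.985). None of 24 genes of KIT, PI3K, AKT and mTOR signalling passed, 4 had an unadjusted p under 0.05, and their median was -0.38. The same held for 25 nuclear genes of oxidative phosphorylation, of which 10 had an unadjusted p under 0.05 and 24 lay below 0 (median -0.33). None of 17 glycolysis genes (median 0.02), 30 ribosomal protein genes (0.15), 18 piRNA pathway genes (-0.13) or 10 BCL2 family genes (-0.05) passed either, with 4, 1, 5 and 6 at an unadjusted p under 0.05. Nor did 2 FGF receptor and ligand genes (0.23) or 5 ID family and BMP target genes (0.10), with 0 at an unadjusted p under 0.05. Several list medians changed sign with the setting, so no direction is given for these lists. With genes per cell as a covariate the ribosomal median was -0.11, the glycolysis median -0.01 and the FGF median -0.04. After centring, the piRNA and BCL2 medians were 0.07 and 0.15, that of undifferentiated and progenitor genes 0.19 and that of the GDNF receptor complex 0.04. Within EGFP quartiles the ID and BMP median was -0.39 and that of immediate early genes -0.16. These counts of 0 come from limma, in which 1789 of all 10396 genes tested had an unadjusted p under 0.05 and 1.3% passed. At that share a list of 2 to 30 genes can hold 0 called members without differing from all genes.

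Cells with both transcripts offered a comparison that neither class defined alone, although the rule still used Gfra1 and Kit. Against Gfra1-only cells, 4 genes (0.0385%) passed in limma. All 4 were higher in the cells with both transcripts and were also among the 79. Among them were Stra8 (Gfra1-only minus both -3.89, SE 0.34, adjusted p = 3.73e-06), Gmnn (-2.07, adjusted p = 0.0136) and Crabp1 (-2.21, adjusted p = 0.0158). Against Kit-only cells, 0 genes (0%) passed in limma, and 1091 had an unadjusted p under 0.05. Stra8 in cells with both transcripts stood at 7.56, 6.85, 5.58 and 8.29, each above every Gfra1-only mean and slightly below the Kit-only mean of its preparation. Of the 56 genes higher in Gfra1-only cells, 50 had their mean in the cells with both transcripts between the means of the other classes, and of the 79 genes 64 did, while 13 lay at or beyond the Kit-only mean. Cells with neither transcript lay between for 49 of the 56 and 60 of the 79, so this position was not particular to cells with both. Preparation 1 held 3 cells with both transcripts, so its points are the least certain. Both comparisons share cells with the main one. Averaged over all cells of a class, 6336 genes stood at 1 FPKM or more in cells with both transcripts and 5070 in cells with neither. These averages were 5432 in Gfra1-only and 5857 in Kit-only cells. The part of genes per cell in these comparisons was not tested.

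**Figure D3:**
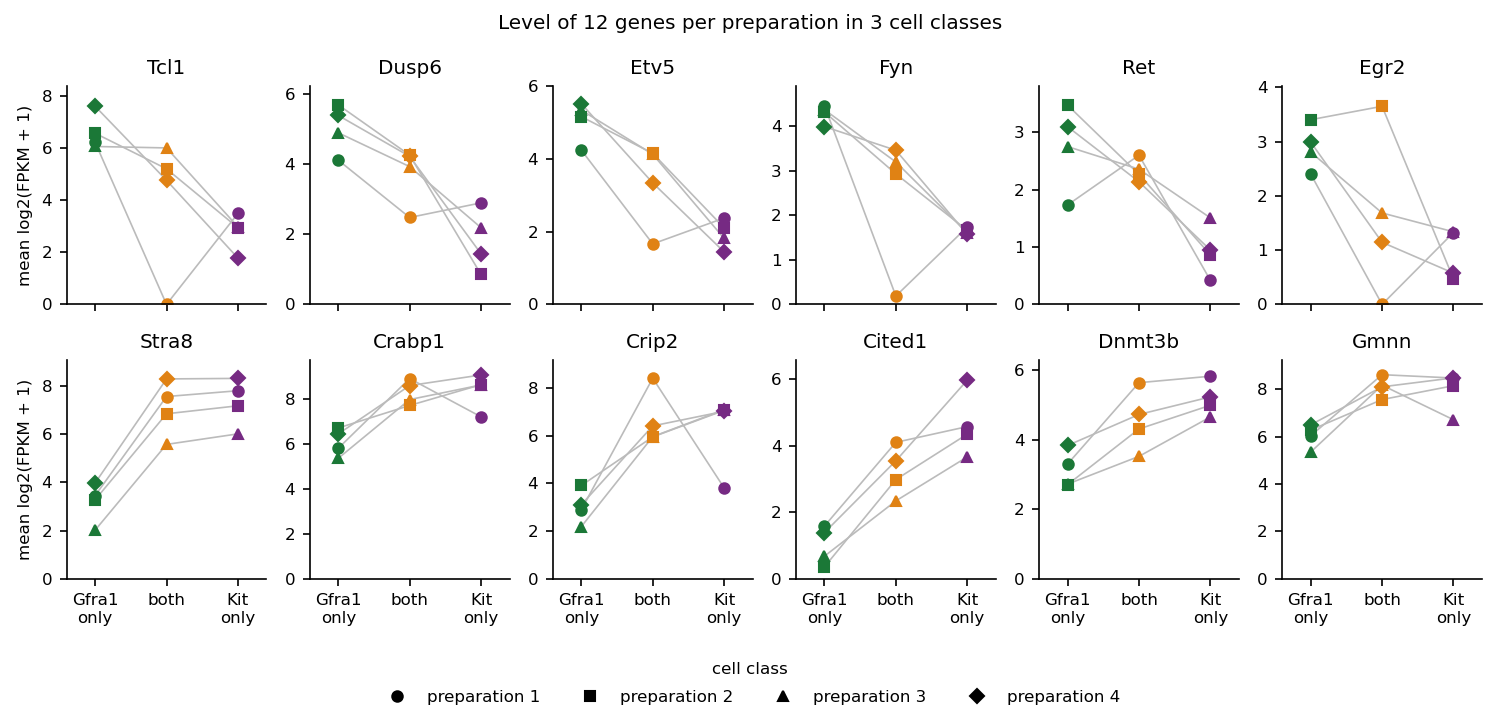
Mean log2(FPKM + 1) per preparation (symbols, joined by grey lines) of 12 genes in Gfra1-only cells, cells with both transcripts and Kit-only cells. The Stra8 means of cells with both transcripts, 5.58 to 8.29, overlap those of Kit-only cells, 6.02 to 8.32, and lie above those of Gfra1-only cells, 2.02 to 3.98.

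EGFP brightness, which the rule did not use, differed between the classes. Gfra1-only cells made up 65.8% ± 11, 55.2% ± 23.4, 31.9% ± 12.8 and 17.2% ± 12.6 of the cells in Q1, Q2, Q3 and Q4 (SD, n = 4). The share rose by 16.9 percentage points per brighter quartile (exact permutation p = 0.00105, adjusted p = 0.00422), in 4 of 4 preparations. Kit-only cells made up 5.24% ± 4.33, 13.5% ± 11.6, 14% ± 7.39 and 35.9% ± 23, and their share fell by 9.23 points per brighter quartile (exact permutation p = 0.00354, adjusted p = 0.00709), also in 4 of 4. Without preparation 4, in which 68.4% of Q4 cells were Kit-only, the Kit-only slope was -5.89 points (exact permutation p = 0.0305, adjusted p = 0.0407). The share of cells with both transcripts had a slope of 0.78 points (exact permutation p = 0.564). That of cells with neither transcript fell by 8.46 points (exact permutation p = 0.0353, adjusted p = 0.0470), but without preparation 1, 2 or 3 it did not pass.

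**Figure D4:**
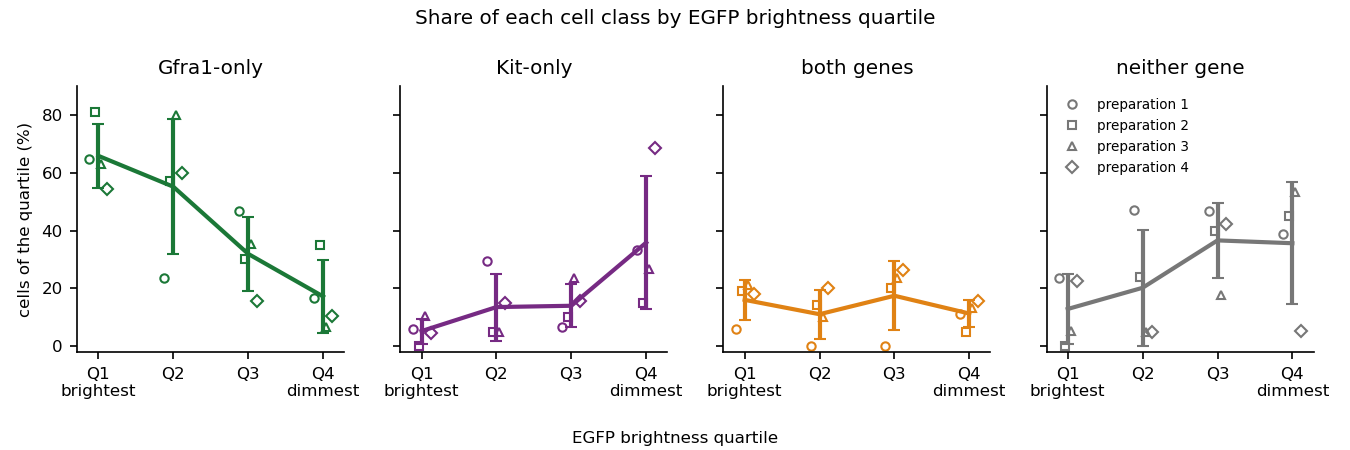
Percent of the cells of each EGFP quartile (horizontal, Q1 brightest to Q4 dimmest) in each of 4 cell classes. Lines and bars give the mean ± SD over 4 preparations and symbols the preparations; Gfra1-only falls from 65.8% in Q1 to 17.2% in Q4 and Kit-only rises from 5.24% to 35.9%.

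Because the classes differed in brightness, they were also compared among cells of the same preparation and quartile. Some of these comparisons rest on 1 cell of a class, and preparation 2 had 0 Kit-only cells in Q1. Of the tested genes, 9 (0.0866%) passed, 1 higher in Gfra1-only cells and 8 in Kit-only cells. The single gene was Sdc4 (1.17, SE 0.18, adjusted p = 0.0119). The 8 were Stra8 (-3.69, SE 0.44, adjusted p = 0.000719), Gmnn (-2.21, adjusted p = 0.00896) and Cited1 (-3.11, adjusted p = 0.0279), with Crip2, Adi1, Cdc45, Crabp1 and the calmodulin gene Calm2 at adjusted p from 0.0429 to 0.0473. Calm2 belongs to none of the lists and was chosen after its values were seen. All 56 and all 79 genes kept their sign, and 46 and 76 had an unadjusted p under 0.05. The sizes changed unequally. Each of the 56 was smaller within quartiles, with a median of 1.07 against 1.72, whereas 56 of the 79 were smaller, with medians of -1.60 and -1.74. Tcl1 moved from 3.81 to 2.05 and Eomes from 1.40 to 0.32, while Stra8 moved from -4.15 to -3.69 and Cdc45 from -1.68 to -2.22. The genes were chosen on the same cells, so some loss of size could come from the choice. Neither this nor the difference between the sides was tested.

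**Figure D5:**
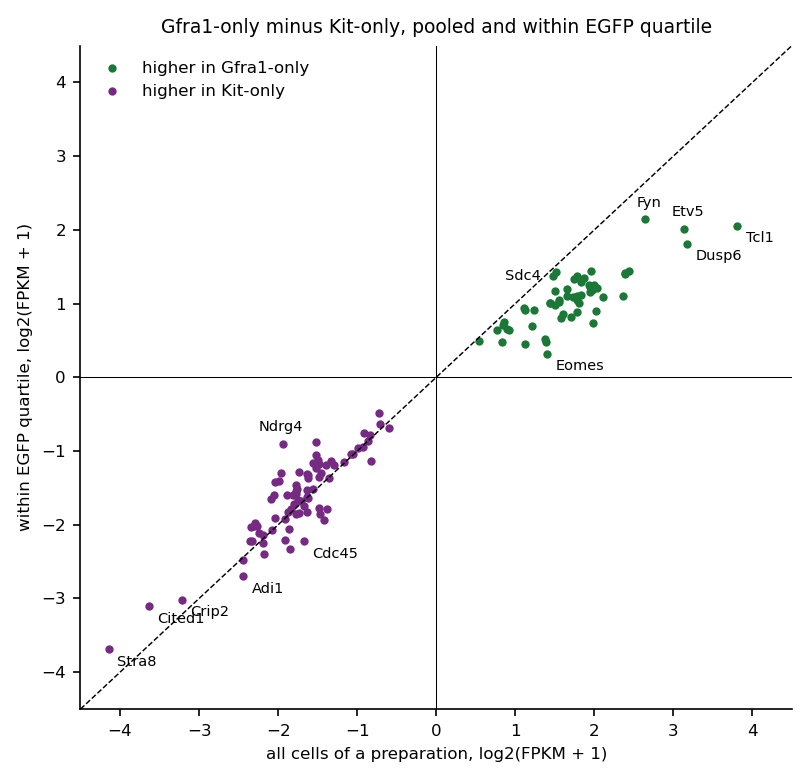
Difference between the classes within EGFP quartile (vertical) against that over all cells of a preparation (horizontal), both on log2(FPKM + 1), for the 135 called genes; the dashed line marks equal values. All 56 green points (higher in Gfra1-only) lie below the line toward 0, with a median of 1.07 against 1.72, and the purple points (higher in Kit-only) lie about the line, with medians of -1.60 and -1.74.

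Of 72 markers of 9 other cell types, 18 were found in enough cells to be tested. None of the 18 passed in limma, and 4 had an unadjusted p under 0.05. Of all 10396 genes tested, 1.3% passed and 1789 had an unadjusted p under 0.05, so 0 of 18 does not set these markers apart. A match to another type required 5 FPKM or more for 3 or more of its measured markers and for 50% or more of them. By this measure 4 of 131 Gfra1-only cells matched, 3 macrophages or leukocytes and 1 spermatid. A larger share of Kit-only cells matched, 7 of 50, with 4 macrophages or leukocytes and 3 spermatids. The matching cells also held Ddx4 and Dazl at 1 FPKM or more, so those genes do not set them apart. The summed level of 11 macrophage markers had a median of 0.256 FPKM in Gfra1-only cells, with a range from 0 to 10973, and of 3.46 FPKM in Kit-only cells, with a range from 0 to 12193. That of 8 spermatid markers had medians of 39.4 and 8.31 FPKM, with highest values of 583 and 641. The Sertoli cell markers Cldn11, Fshr and Gata1 and the Leydig cell markers Cyp17a1, Hsd3b1, Hsd17b3 and Lhcgr stood at 0 in every cell of both classes. The summed level of 11 Sertoli markers nonetheless had medians of 154 and 106 FPKM, with ranges from 3.30 to 895 and from 0 to 557. Most of it was Ctsl, a lysosomal protease gene found in 98.5% and 92% of cells with means of 196 and 111 FPKM, while Gata4 was found in 0% and 8%. The 7 Leydig markers summed to a median of 0 in both classes, with highest values of 76.9 and 71.6 FPKM, and Star was found in 12.2% and 12% of cells. The 8 pachytene markers had summed medians of 49.9 and 72.1 FPKM, and the spermatid marker Tnp1 was found in 53.4% and 38% of cells. Mast cells carry KIT too, and 6 of 8 mast cell markers, Cpa3, Mcpt4, Cma1, Tpsb2, Fcer1a and Ms4a2, stood at 0 in every cell of both classes. The other mast cell markers were found in 9.16% and 20% of cells (Gata2) and in 14.5% and 12% (Hdc). The part of these markers in the results was not tested beyond leaving out the matching cells. Without the matching cells, 44 genes were higher in Gfra1-only and 73 in Kit-only cells, and 96 of the 135 were among them.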

How the data were processed

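The deposited table gives 1 value per gene name and cell for 23354 names. Its header states no unit; the values were taken as the authors' FPKM because the submitters' processing notes name Cufflinks, with TopHat, FastQC and Picard and the builds mm10 and GRCm38. Versions are not given in the sources used here. Values of the 300 cells summed to 348305 to 682985 FPKM; read depth is unknown, so no interval on counts is given and no count model was used. Id4 itself is not analysed here, and 1 gene that the naming rule takes is not reported here.

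Cells were classed at 1 FPKM of Gfra1 and Kit. Per preparation and class, log2(FPKM + 1) was averaged over cells (pseudocount 1), for 8 means. The test took genes that reached 1 FPKM in 30 or more cells, with limma 3.58.1 in R 4.3.3, the preparation as a block and trended, robust variances; adjusted p-values are Benjamini-Hochberg over 10396 genes (threshold 0.05). The pairing rests on the mice and chip that both classes of a preparation share; deviations correlated at 0.32, 0.13, 0.10 and 0.09 in preparations 1 to 4. The labels do not say that the preparations used different animals beyond calling them replicates. Shares by quartile were tested by exact two-sided permutation of quartile labels within preparations, adjusted over 4 classes. Within quartiles, class differences were averaged over the quartiles of a preparation that held both classes. The code was tested on simulated data. Positions are from GENCODE vM21, promoters from RefSeq GRCm38.

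The classes and the gene lists were chosen with earlier results of these data known, and p-values over these cells are no independent evidence for them. Genes named are a panel of 23, the 12 largest called differences in each direction with one sign in all preparations, and the 3 members or fewer of each list with the smallest p, without predicted genes; others are marked as chosen after their values were seen, except Rhox10, Dusp2 and other list members named because they were called. Alternatives changed the pseudocount, filter, block, replicates, weights, centring, class threshold and cells; the restriction to Gfra1-only cells with more genes was chosen after seeing the data.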

Additional observations from a re-analysis of the deposited data

Results flagged for a closer look

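In 82 groups of 4 preparation values examined, 7 had 1 value far from the other 3, and chance alone flags about 1 in 20 groups, so the number is of the order that chance gives. For Zbtb16 the difference was 2.94 in preparation 1 and between 0.80 and 1.01 in the others, and for Id3, a target of BMP signalling, 3.14 in preparation 4 and between -0.17 and 0.20 in the others. Gfra3 stood at -1.04 in preparation 4 and between -0.44 and -0.36 elsewhere. The cell cycle inhibitor gene Cdkn2d stood at -0.30 in preparation 3 against -1.86 to -1.70. Atp5a1, an ATP synthase subunit gene, stood at -0.85 in preparation 1 against -0.43 to -0.38, and the ribosomal protein gene Rpl4 at 0.11 in preparation 1 against 0.41 to 0.43. Dusp2 stood at -2.45 in preparation 2 against -1.07 to -0.81, and is the only one of the 7 past the threshold in the comparison of the classes.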

How the results depend on the processing

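The count of 135 called genes (56 higher in Gfra1-only, 79 in Kit-only) stayed within 1.5 times under a pseudocount of 0.1, a stricter filter, means weighted by cells, classes cut at 5 FPKM, the excluded gene at exactly 0 and removal of cells of other types. It was 1 (0 and 1) with no filter, 57 (27 and 30) with all 4 classes fitted together, 215 (160 and 55) after median centring, 4 (1 and 3) with genes per cell as a covariate, 6 (2 and 4) on the log2 of the mean FPKM, 9 (1 and 8) within EGFP quartiles, and 67 (53 and 14) against the Gfra1-only cells with more genes. Leaving out 1 preparation gave 14 to 203 calls, 8 to 69 higher in Gfra1-only and 6 to 134 in Kit-only cells. Without the replicate block, so without pairing by preparation, 11 were called (7 and 4). Of 45 called genes named in the text, 44 lost their call with the covariate, 44 with no filter, 40 on the log2 of the mean FPKM, 37 without the block and 36 within quartiles, and each kept its sign. Leaving out preparation 1, 2, 3 or 4 took the call from 7, 32, 24 and 33 of the 45. Removing cells of other types took it from 10. The cause was not tested.

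Stra8 passed in all 18 alternatives, and the slopes of Gfra1-only and Kit-only shares over quartiles passed in every alternative run for them. Without preparation 1, 2 or 3, the slope of cells with neither transcript did not pass (-9.76, -6.24 and -6.05; range over the 4 omissions -11.8 to -6.05). That of cells with both transcripts ran from -0.17 to 1.56.

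Among genes that did not pass, Neurog3 stood above 0 with a pseudocount of 0.1 (0.036), after centring (0.19), on the log2 of the mean (0.39), with the excluded gene at 0 (0.065), within quartiles (0.20) and without cells of other types (0.075), and at -0.21 to 0.19 when 1 preparation was left out. Sox3 turned after centring (0.18), on the log2 of the mean (0.50), at 5 FPKM (0.070), with the excluded gene at 0 (0.080) and within quartiles (0.41), and ran from -0.12 to 0.093 without 1 preparation. Ddx4 turned after centring (0.19), on the log2 of the mean (0.054), with the excluded gene at 0 (0.026) and against Gfra1-only cells with more genes (0.18), and ran from -0.099 to 0.034. With the covariate Nanos3 stood at -0.53, Upp1 at 0.26 and Mki67 at 0.079. Read depth per cell is unknown, and 4 preparations with as few as 6 Kit-only cells limit what could be called.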
